A study of Homo sapiens with 9 samples.

Results

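The clustered replication-dependent histone genes are the protein-coding genes whose symbols begin with HIST1H, HIST2H, HIST3H or HIST4H, and they were followed here after knockdown of 2 subunits of SIN3 histone deacetylase complexes, SUDS3 and PHF12. Selection by GENCODE 29 gene type and symbol found 71 such genes among the 58735 in the count table: 6 for the linker histone H1, 17 for H2A, 18 for H2B, 15 for H3 and 15 for H4. Of these, 18 had a mean count of at least 40 in any group (1 H1, 3 H2A, 9 H2B, 2 H3 and 3 H4 genes), and 17 had no count in any library.

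RNA was measured in HEK293T cells, an immortal line of human embryonic kidney origin expressing SV40 large T antigen, in 3 groups of 3 libraries each. The groups received 10 nM of 1 Silencer Select siRNA against SUDS3, 10 nM of 1 Silencer Select siRNA against PHF12, or 10 nM of the Silencer Select Negative Control No. 2 siRNA. All groups were transfected with Lipofectamine RNAiMAX and collected after 36 h, so what they share is the transfection and the line itself. RNA was prepared with TRIzol, DNase treated and selected for poly-A tails before stranded sequencing. With 1 siRNA per target, an effect of the target and an effect of that particular siRNA cannot be told apart. Whether the 3 libraries of a group stem from separate cultures is not stated, and p-values then cover only the variation among them, which may be technical.

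These genes supply the histones that package newly made DNA, and they are transcribed in S phase from the histone locus body, where NPAT is recruited to their promoters. Their messenger RNAs are known for ending in a conserved stem-loop instead of a poly-A tail: the stem-loop is bound by SLBP, and the U7 small nuclear ribonucleoprotein directs the cut just after it. Some of the genes also give rise to longer, polyadenylated transcripts that end past the stem-loop, chiefly outside S phase and in differentiated cells. A poly-A library counts polyadenylated RNA, and the stem-loop form was not measured here.

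The sequence that defines the class was located in the annotated transcripts as the letters GGCNCTTTTNAGNNCC, where N is any base. It was found in 31 of the 71 members, and no annotated transcript of the other 40 contained these letters. Many of the 40 have short annotated transcripts, such as HIST1H3A with 411 bases and HIST1H4D with 312. An annotation that stops short of the 3′ end cannot contain the letters, so their absence does not show that a gene lacks the stem-loop. One example of each form found is shown with 5 bases on either side, 5′ to 3′ along the transcript, with the stem-loop in capitals. The members were picked to cover the forms and include genes whose levels are described below.
HIST3H2A: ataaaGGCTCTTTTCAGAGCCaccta
HIST1H2AG: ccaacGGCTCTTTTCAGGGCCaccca
HIST1H2BD: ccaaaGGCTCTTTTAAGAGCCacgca
HIST4H4: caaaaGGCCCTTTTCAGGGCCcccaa
HIST1H4I: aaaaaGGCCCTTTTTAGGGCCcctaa
The form in HIST3H2A occurred in 17 members of the H2A, H2B and H3 types. The form in HIST4H4 occurred in 5 members and the form in HIST1H4I in 3, all of them H4 genes. The form in HIST1H2BD occurred in 5 members, and the mixed form in HIST1H2AG in 1.

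Members with counts had long annotated transcripts. Of the 18 members with a mean count of at least 40 in any group, 13 had an annotated transcript running at least 100 bases past the stem-loop, against 9 of the 53 others. The letters AATAAA, a polyadenylation signal, stood past the stem-loop in 10 of those 18 and in 8 of the 53. The median annotated exonic length was 1864 bases in the 18 and 411 bases in the 53. HIST1H2BK and HIST1H1C, both among the 3 members with the highest counts, were exceptions, since GENCODE 29 gives only 381 and 642 bases for them and no stem-loop. These are properties of the annotation, and which 3′ ends the counted fragments carried was not measured. The counts were not scaled by length here, so a gene with a longer annotation can pass a mean count of 40 more easily. A stretch past the stem-loop can also be found only where the annotation reaches that far. The link between counts and annotated length is thus partly built in.

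**Figure D1:**
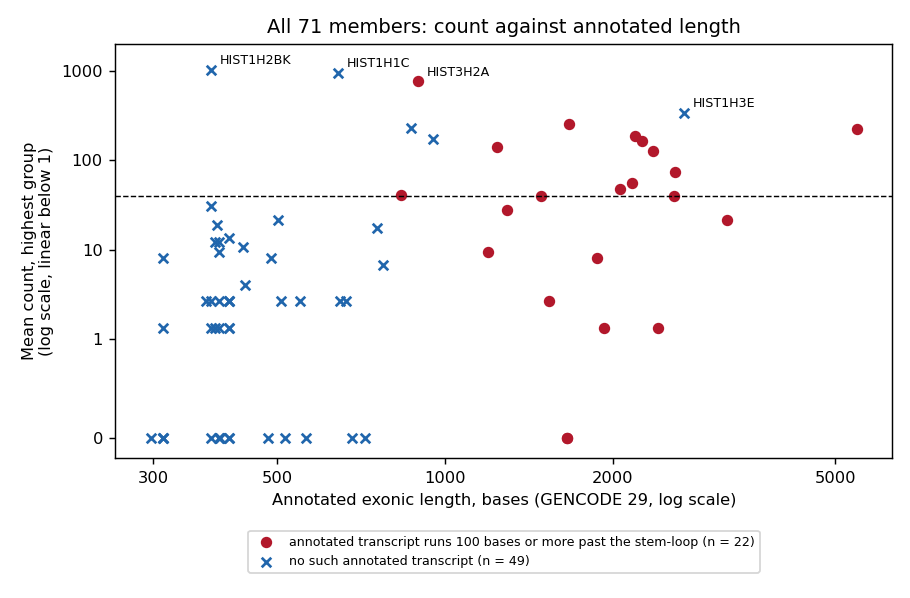
Mean count in the highest group (y, log scale, linear below 1) against annotated exonic length in bases (x, log scale) for all 71 members, with circles for members whose annotated transcript runs 100 bases or more past the stem-loop and crosses for the rest. The dashed line is a mean count of 40; of the 18 members on or above it, 13 are circles, and HIST1H2BK and HIST1H1C are the short exceptions.

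Together the members took a small part of each library: 0.00698% to 0.00708% of the counts with SUDS3 siRNA, 0.0102% to 0.0107% with PHF12 siRNA and 0.009% to 0.0097% with control siRNA. Library totals were 37962926 to 50946148 counts, and 96.2% of all counts above 0 were multiples of 4, so 1 fragment appears to be worth 4 counts and a mean count of 40 would be about 10 fragments. SUDS3 itself fell to 22.1 ± 0.937 CPM (counts scaled by TMM to 1000000 per library) with its siRNA, against 81.0 ± 0.784 CPM with PHF12 siRNA and 111.1 ± 3.31 CPM in control cells (SD, n = 3 each here and throughout). PHF12 had 61.5 ± 1.73 CPM with SUDS3 siRNA, 26.9 ± 2.08 CPM with its own siRNA and 49.9 ± 0.938 CPM in control cells. Each target thus fell with its own siRNA, at a log2 fold change of -2.33 for SUDS3 (edgeR adjusted p = 1.82e-28) and -0.89 for PHF12 (edgeR adjusted p = 1.88e-14). SUDS3 also fell with PHF12 siRNA (-0.46, edgeR adjusted p = 6.83e-10), and PHF12 rose with SUDS3 siRNA (0.30, edgeR adjusted p = 7.19e-05). The 5 markers checked for HEK293T cells were all detected. Of 7 markers of other cell types, PTPRC was at 0. The summed level of the 7 was 1.08 to 1.65 CPM with SUDS3 siRNA, 2.58 to 4.08 CPM with PHF12 siRNA and 2.11 to 2.65 CPM with control siRNA. Of the 3 that could be tested, GFAP was lower with SUDS3 siRNA and higher with PHF12 siRNA, as was HIST1H1C below. Of the 5 HEK293T markers, KRT8 and VIM were lower with SUDS3 siRNA and higher with PHF12 siRNA. KRT18 was lower with PHF12 siRNA, and PAX2 and LHX1 passed neither comparison with control. The part of these markers in the histone levels was not tested.

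Set on a per-length scale, the members spanned a wide range, and 3 of them stood above the rest. In CPM per kilobase of exonic length, averaged over the 9 libraries, HIST1H2BK had 40.6, HIST1H1C 22.6 and HIST3H2A 16.9. HIST1H2BD followed with 4.90, HIST1H2BJ with 3.69 and HIST1H2AC with 2.88. The order differed between groups. HIST3H2A had 15.3 ± 0.542 and HIST1H1C 14.7 ± 0.627 CPM per kilobase with SUDS3 siRNA, and in control cells they had 20.2 ± 1.38 and 21.5 ± 2.63, within their spread, while with PHF12 siRNA HIST1H1C stood at 31.7 ± 3.42 and HIST3H2A at 15.3 ± 0.996. HIST1H3E and HIST1H3H averaged 2.04 and 2.02 over the 9 libraries, but with SUDS3 siRNA they had 1.29 ± 0.0969 and 1.81 ± 0.0246. HIST4H4 had the lowest average of the 18 at 0.206, though with PHF12 siRNA HIST1H4E was lower, at 0.237 ± 0.208 against 0.330 ± 0.0688 for HIST4H4. The median gene tested had 3.03 CPM per kilobase, so all but 5 of the 18 lay below it. The first 3 members alone held 50.6% of all member counts. The length of HIST1H2BK is its coding length, and HIST1H1C is likewise annotated at only 642 bases, without a stem-loop. Such short lengths raise the per-length values of both genes if longer transcripts were counted. Only 25.9% of the 50-base windows of HIST1H2BK are unique among annotated transcripts, so its counts depend on how reads shared with other H2B genes were treated.

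The question of the comparisons is how loss of each SIN3 subunit changes transcript levels, relative to control siRNA and to each other. The comparisons with control share the same 3 control libraries. Members were tested in one fit over all 18088 genes that passed a filter on low counts; 30 of the 71 passed it, and 41 were not tested. A member may have passed only through the group where it was high, which favours a difference, so the counts below describe the tested members only.

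With SUDS3 siRNA, tested histone members were lower or did not pass, and none rose. HIST1H1C, HIST1H2AC, HIST1H2AG, HIST1H2BN, HIST1H3E, HIST3H2A and HIST3H2BB fell, at 0.532 to 0.757 times the control level. That is 7 of 30 members lower by edgeR (23.3%), against 19.2% of all genes tested, and 0 higher, against 19.6% of all genes tested. No member was higher at an unadjusted p under 0.05 by edgeR or in DESeq2, while limma on TPM called HIST4H4 higher. The median log2 fold change was -0.44 over the 30 members and -0.02 over all genes tested, and it was below 0 in 26 of the 30. Over the 30 members the share called lower is thus close to that of all genes, and the share called higher is not. These 30 include 12 with a mean count below 40, none of which had an unadjusted p under 0.05 by edgeR. All 7 lower members were among the 18 with a mean count of at least 40 (38.9% of them). In a fit of only the genes with a mean count of at least 40, 9 of 18 members were lower and 0 higher, against 24.4% and 24.7% of the genes in that fit. HIST1H2BC, among the 9, reached that mean count only in control cells, its highest group.

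With PHF12 siRNA, few members changed and they went both ways. HIST1H1C (the H1 member with the most counts), HIST1H2BK and HIST4H4 rose, at 1.47, 1.71 and 2.98 times the control level. HIST3H2A fell to 0.759 times the control level. By edgeR, 3 of 30 members were higher (10.0%), against 14.8% of all genes tested, and 1 of 30 was lower (3.33%), against 17.1%. The median log2 fold change was -0.13 over the members and -0.00 over all genes tested, with 11 above 0 and 19 below. Over the 30 members both shares are below those of all genes tested. Of the 30, the 12 with a mean count below 40 had no unadjusted p under 0.05 by edgeR. In the fit of genes with a mean count of at least 40, 3 of 18 members were higher and 2 lower, against 19.8% and 21.4% of its genes. HIST4H4, among the 3, reached that mean count only with PHF12 siRNA. HIST1H4E, among the 2, reached it only in control cells. Each thus entered that fit only through its highest group.

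Set directly against PHF12 siRNA, SUDS3 siRNA gave lower levels of 9 tested members and higher levels of none. These were HIST1H1C, HIST1H2AC, HIST1H2AG, HIST1H2BD, HIST1H2BH, HIST1H2BK, HIST1H2BN, HIST1H3E and HIST3H2BB. By edgeR, 9 of 30 were lower, against 21.1% of all genes tested, and 0 were higher, against 22.7%. No member was higher at an unadjusted p under 0.05 by edgeR, and none was called higher by DESeq2 or by limma. In the fit of only the genes with a mean count of at least 40, HIST1H4E was higher at an unadjusted p under 0.05 and not after adjustment. The median log2 fold change was -0.37 over the 30 members and -0.01 over all genes tested, and HIST1H1C, HIST1H2BH and HIST1H3E had the lowest values. Among the genes with a mean count of at least 40, 9 of 18 members were lower and 0 higher, against 26.8% and 28.1% of the genes in that fit. HIST1H2BH, among the 9, reached that mean count only with PHF12 siRNA, its highest group.

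**Figure D2:**
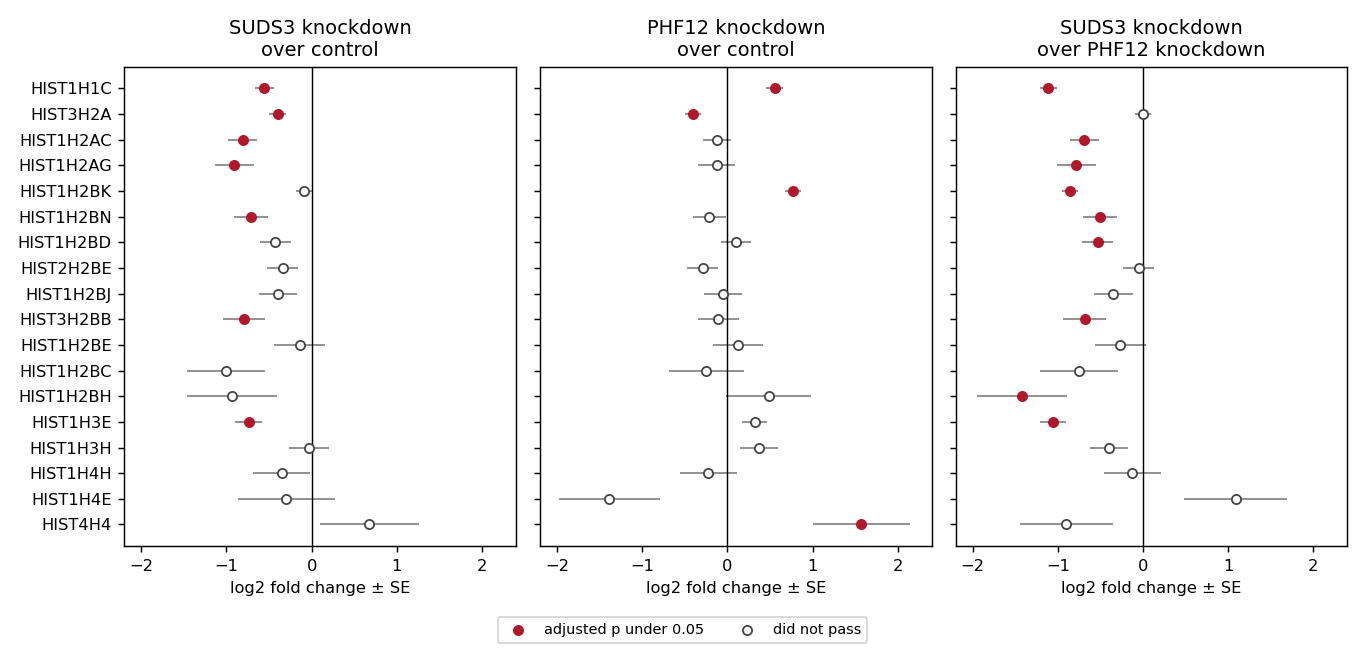
Log2 fold change with its SE (x) for the 18 members with a mean count of at least 40 (y, ordered by histone type), in a panel for each comparison; filled points have an edgeR adjusted p under 0.05. With SUDS3 siRNA 17 of the 18 points lie left of 0 and 7 are filled; with PHF12 siRNA the points lie on both sides, with 3 filled to the right and 1 to the left.

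Summed by histone type, the mean levels were lowest with SUDS3 siRNA in every type, and for H2A the PHF12 siRNA libraries also lay below every control library. All 71 members together had 69.6 ± 0.540 CPM with SUDS3 siRNA, 104.4 ± 2.35 CPM with PHF12 siRNA and 94.3 ± 3.18 CPM in control cells, and no library of one group overlapped another. H1 genes summed to 9.86 ± 0.685 CPM with SUDS3 siRNA, 20.7 ± 2.44 CPM with PHF12 siRNA and 14.01 ± 1.80 CPM in control cells. For H2A genes the sums were 20.3 ± 1.38, 23.9 ± 1.07 and 29.1 ± 0.489 CPM in the same order of groups.
The H2A order differs from that of H1, with control cells highest. H2B genes had 30.2 ± 1.02 CPM with SUDS3 siRNA, 45.7 ± 1.26 CPM with PHF12 siRNA and 38.6 ± 3.05 CPM in control cells. H3 genes had 6.02 ± 0.344, 10.7 ± 0.629 and 8.64 ± 0.148 CPM, again with SUDS3 siRNA first, PHF12 siRNA second and control last. H4 genes had 3.17 ± 0.601 CPM with SUDS3 siRNA, 3.44 ± 0.506 CPM with PHF12 siRNA and 3.93 ± 0.437 CPM in control cells, and their libraries overlapped between groups. Summed per kilobase over the H4 genes with a mean count of at least 40, PHF12 siRNA was lowest, with 1.17, 1.09 and 1.35 CPM per kilobase in the same order. The higher total with PHF12 siRNA rested on HIST1H2BK and HIST1H1C, chosen for this after their values were seen: without them the sums were 48.2 ± 1.48 CPM with SUDS3 siRNA, 62.4 ± 0.887 CPM with PHF12 siRNA and 67.8 ± 2.37 CPM in control cells. A sum over the members was not tested. In whole cultures, a change in the mix of cells and a change in RNA per cell cannot be told apart. The stem-loop form made in S phase was not measured, so these sums do not give the share of cells in S phase.

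**Figure D3:**
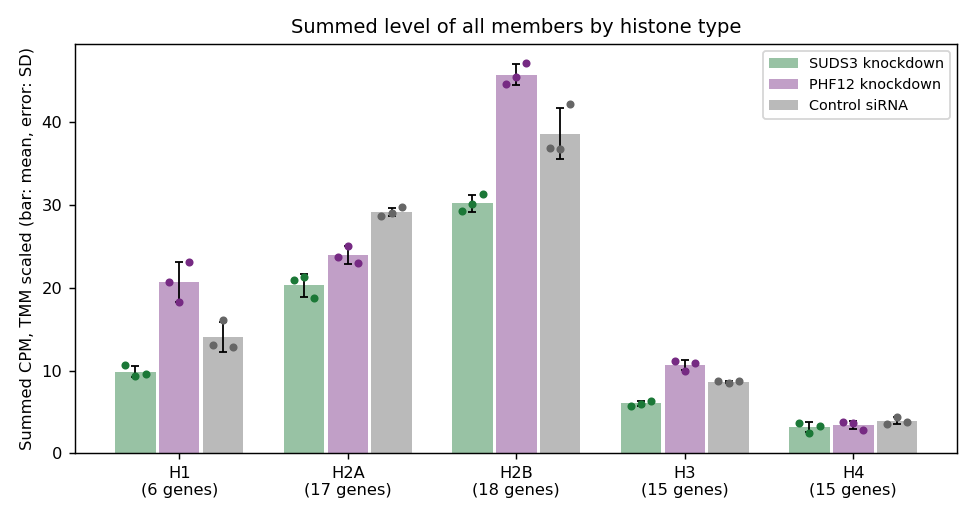
Summed level in CPM (y) of all 71 members by histone type (x), with bars for the mean of 3 libraries, lines for the SD and points for the libraries; SUDS3 siRNA is left, PHF12 siRNA in the middle and control siRNA right. SUDS3 siRNA has the lowest bar in each type, and only for H2A and H4 does PHF12 siRNA lie below control.

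Linker histone H1, which binds the DNA between nucleosomes, was represented by 1 well-counted gene. HIST1H1C (H1.2), at chr6:26055787-26056428 in GRCh38, had 9.81, 9.01 and 9.41 CPM with SUDS3 siRNA, 20.5, 18.03 and 22.4 CPM with PHF12 siRNA, and 13.0, 15.7 and 12.7 CPM with control siRNA. The groups did not overlap, with PHF12 siRNA highest and SUDS3 siRNA lowest. It fell with SUDS3 siRNA (log2 fold change -0.55, SE 0.11, edgeR adjusted p = 5.91e-05) and rose with PHF12 siRNA (0.56, SE 0.10, edgeR adjusted p = 3.85e-05). Between the knockdowns the log2 fold change was -1.11 (SE 0.10, edgeR adjusted p = 3.35e-11). It was the only tested member called in opposite directions against control, and all 3 calls held in each of 19 alternative fits. Of the other H1 genes, HIST1H1E reached a mean count of 17.3 at most and did not pass, HIST1H1A and HIST1H1D had at most 8 counts in a library, and HIST1H1B and the testis gene HIST1H1T had none.

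H2A, which pairs with H2B in the nucleosome core, was lower with SUDS3 siRNA for all 3 genes above the count threshold. HIST3H2A, at chr1:228456979-228457873, had 13.8, 14.1 and 13.1 CPM with SUDS3 siRNA, 14.4, 13.996 and 12.7 CPM with PHF12 siRNA, and 19.1, 18.3 and 16.7 CPM with control siRNA. It fell in both knockdowns, with log2 fold changes of -0.40 with SUDS3 siRNA (SE 0.09, edgeR adjusted p = 0.000708) and -0.40 with PHF12 siRNA (SE 0.09, edgeR adjusted p = 0.000931). The libraries of both knockdowns overlapped each other and lay below every control library. It was the only tested member that passed in the same direction in both comparisons with control, which share their controls, and the difference between the knockdowns was -0.00 (SE 0.09, edgeR adjusted p = 0.984).

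HIST1H2AC, at chr6:26124145-26139116, had 3.39, 3.84 and 2.65 CPM with SUDS3 siRNA, 4.82, 5.54 and 5.65 CPM with PHF12 siRNA, and 5.67, 5.36 and 6.33 CPM with control siRNA. SUDS3 siRNA stood apart from both other groups, which overlapped each other. The log2 fold change of HIST1H2AC was -0.81 with SUDS3 siRNA (SE 0.17, edgeR adjusted p = 0.000203) and -0.12 with PHF12 siRNA (SE 0.16, edgeR adjusted p = 0.666). Between the knockdowns it was -0.69 (SE 0.17, edgeR adjusted p = 0.000912). HIST1H2AG, at chr6:27133042-27135291, had 2.02, 2.00 and 2.06 CPM with SUDS3 siRNA, 2.99, 3.95 and 3.52 CPM with PHF12 siRNA, and 2.47, 3.72 and 5.28 CPM with control siRNA. The control libraries were spread widely, yet each lay above the SUDS3 siRNA libraries. HIST1H2AG fell with SUDS3 siRNA (-0.91, SE 0.23, edgeR adjusted p = 0.00154), had a value of -0.13 with PHF12 siRNA (SE 0.22, edgeR adjusted p = 0.736), and was lower with SUDS3 than with PHF12 siRNA (-0.78, SE 0.23, edgeR adjusted p = 0.0048).

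**Figure D4:**
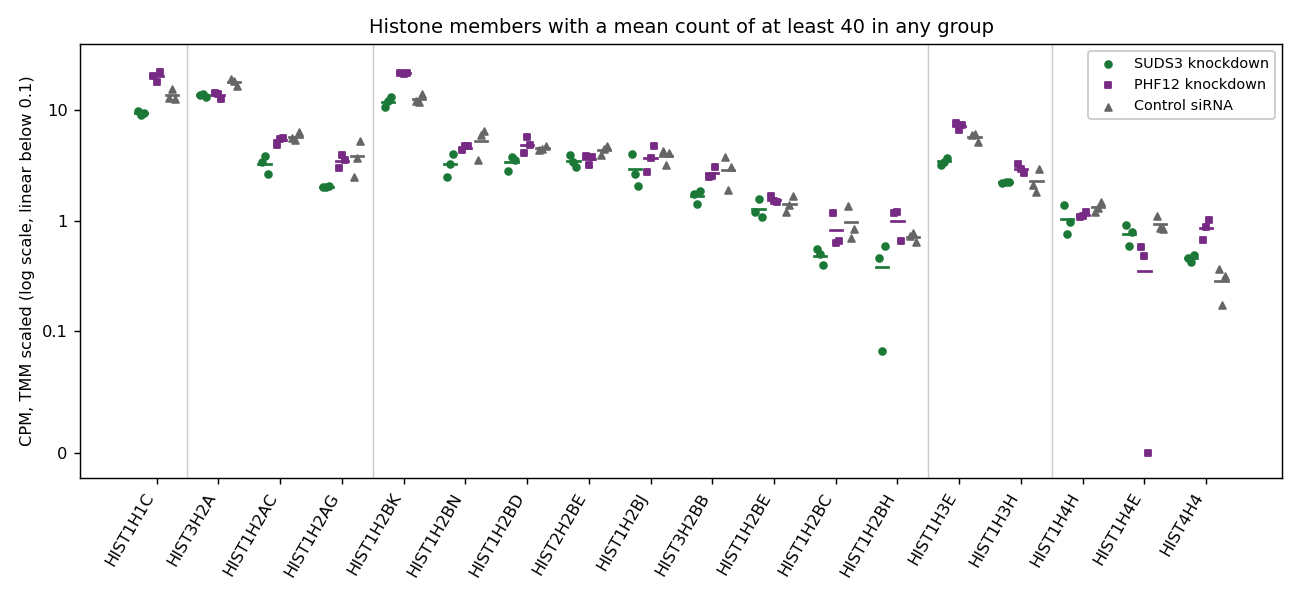
Level of the 18 members with a mean count of at least 40 (x, grouped by histone type with vertical lines between types) in CPM (y, log scale, linear below 0.1), with a point per library and a line at the mean of 3. For HIST1H1C and HIST1H2BK the PHF12 siRNA points lie above both other groups, and for HIST3H2A the control points lie above both knockdowns.

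H2B held 9 of the 18 well-counted genes, and they did not move as one. HIST1H2BK, at chr6:27146418-27146798, had 10.6, 12.2 and 13.1 CPM with SUDS3 siRNA, 22.0, 21.3 and 21.8 CPM with PHF12 siRNA, and 12.1, 11.9 and 14.1 CPM with control siRNA. Its PHF12 siRNA libraries stood well above the rest, while SUDS3 and control libraries overlapped. It rose with PHF12 siRNA (log2 fold change 0.77, SE 0.10, edgeR adjusted p = 4.93e-08), had a value of -0.09 with SUDS3 siRNA (SE 0.10, edgeR adjusted p = 0.556), and was lower with SUDS3 than with PHF12 siRNA (-0.86, SE 0.10, edgeR adjusted p = 2.56e-09). Its start lies 331 bases from that of HIST1H2AH, an H2A gene on the opposite strand that had at most 16 counts in a library.

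HIST1H2BN, at chr6:27837760-27865798, had 2.48, 3.25 and 4.02 CPM with SUDS3 siRNA, 4.33, 4.74 and 4.72 CPM with PHF12 siRNA, and 3.56, 5.97 and 6.44 CPM with control siRNA. One control library lay inside the SUDS3 siRNA range. It fell with SUDS3 siRNA (-0.71, SE 0.20, edgeR adjusted p = 0.00416) and was lower with SUDS3 than with PHF12 siRNA (-0.50, SE 0.20, edgeR adjusted p = 0.0396). The call between the knockdowns ended in 6 of the 9 fits without 1 library, with edgeR adjusted p up to 0.215. It also ended in both limma fits (limma adjusted p = 0.0987 and 0.0984), and held in 11 of 19 alternative fits. The annotated span of HIST1H2BN covers HIST1H2AL on the same strand and HIST1H2AK on the other. With the strand setting of the counting unknown, reads from the overlaps cannot be told apart.

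HIST3H2BB, at chr1:228458107-228460470, had 1.74, 1.42 and 1.86 CPM with SUDS3 siRNA, 2.50, 2.53 and 3.06 CPM with PHF12 siRNA, and 3.75, 1.90 and 3.06 CPM with control siRNA. All SUDS3 siRNA libraries were lowest, with the lowest control library just above them. The log2 fold change of HIST3H2BB was -0.79 with SUDS3 siRNA (SE 0.25, edgeR adjusted p = 0.0105), and the call ended without SUDS3 replicate 2 (-0.67, edgeR adjusted p = 0.0563) or control replicate 1 (-0.56, edgeR adjusted p = 0.12). Between the knockdowns it was -0.69 (SE 0.25, edgeR adjusted p = 0.0233), which ended without SUDS3 replicate 2 or PHF12 replicate 3 (edgeR adjusted p = 0.0978 and 0.0971). HIST3H2BB and HIST3H2A are neighbours whose starts lie 234 bases apart on opposite strands, yet with PHF12 siRNA HIST3H2BB had a value of -0.11 (SE 0.24, edgeR adjusted p = 0.801); the difference between the 2 genes was not tested.

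HIST1H2BD and HIST1H2BH passed between the knockdowns and not against control. HIST1H2BD, at chr6:26158146-26171349, had 2.84, 3.75 and 3.53 CPM with SUDS3 siRNA, 4.08, 5.77 and 4.82 CPM with PHF12 siRNA, and 4.39, 4.50 and 4.75 CPM with control siRNA. It was lower with SUDS3 than with PHF12 siRNA (-0.53, SE 0.18, edgeR adjusted p = 0.0135), which ended without SUDS3 replicate 1 or PHF12 replicate 2 (edgeR adjusted p = 0.0793 and 0.121). Against control it had -0.43 with SUDS3 siRNA (SE 0.18, edgeR adjusted p = 0.0577), and 6 of 19 alternative fits, DESeq2 and both limma fits among them, called it lower. HIST1H2BH, at chr6:26251651-26253710, was counted 20, 4 and 24 times with SUDS3 siRNA, 56, 60 and 28 times with PHF12 siRNA, and 32, 36 and 24 times with control siRNA. At 4 counts to a fragment these are 15 fragments or fewer per library. Its difference between the knockdowns was -1.42 (SE 0.52, edgeR adjusted p = 0.0255), which ended without SUDS3 replicate 2 (-0.93, edgeR adjusted p = 0.135), PHF12 replicate 1 or PHF12 replicate 2 (edgeR adjusted p = 0.0857 and 0.0952).

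The remaining H2B genes passed no comparison in the edgeR fit over all genes tested. HIST1H2BC had 0.481 ± 0.0808 CPM with SUDS3 siRNA, 0.815 ± 0.303 CPM with PHF12 siRNA and 0.969 ± 0.356 CPM in control cells, with log2 fold changes over control of -1.0045 (SE 0.46, edgeR adjusted p = 0.0825) and -0.25 (SE 0.44, edgeR adjusted p = 0.739). It was called lower with SUDS3 siRNA by edgeR among the genes with a mean count of at least 40 (-1.01, adjusted p = 0.0354) and by DESeq2 (adjusted p = 0.0451). HIST2H2BE, the well-counted member of the HIST2 group on chromosome 1, had 3.47 ± 0.454, 3.60 ± 0.375 and 4.39 ± 0.420 CPM in the same order, with log2 fold changes of -0.34 and -0.29 and adjusted p of 0.15 and 0.252 by edgeR. HIST1H2BJ, whose start lies 292 bases from that of HIST1H2AG, had 2.92 ± 1.01 CPM with SUDS3 siRNA, 3.73 ± 0.989 CPM with PHF12 siRNA and 3.85 ± 0.574 CPM in control cells. Its libraries overlapped in every comparison, and without SUDS3 replicate 1, its highest SUDS3 siRNA library, it was called lower with SUDS3 siRNA (-0.70, edgeR adjusted p = 0.023) and between the knockdowns (-0.66, edgeR adjusted p = 0.0283). HIST1H2BE, overlapped by another gene on the opposite strand, had 1.29 ± 0.266, 1.55 ± 0.0995 and 1.42 ± 0.253 CPM with SUDS3, PHF12 and control siRNA.

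Among H3 genes, whose tails carry many regulatory marks, 1 passed. HIST1H3E, at chr6:26224199-26227473, had 3.21, 3.42 and 3.73 CPM with SUDS3 siRNA, 7.65, 6.64 and 7.32 CPM with PHF12 siRNA, and 6.03, 6.05 and 5.17 CPM with control siRNA. The groups did not overlap, in the same order as for HIST1H1C. It fell with SUDS3 siRNA (log2 fold change -0.74, SE 0.16, edgeR adjusted p = 0.000193), had 0.32 with PHF12 siRNA (SE 0.15, edgeR adjusted p = 0.0988; called higher by DESeq2, adjusted p = 0.0305), and was lower with SUDS3 than with PHF12 siRNA (-1.06, SE 0.15, edgeR adjusted p = 3.74e-07). HIST1H3H had 2.24 ± 0.0304 CPM with SUDS3 siRNA, 2.95 ± 0.280 CPM with PHF12 siRNA and 2.29 ± 0.593 CPM in control cells, and passed no comparison; its log2 fold changes were -0.03 with SUDS3 siRNA (SE 0.23) and 0.37 with PHF12 siRNA (SE 0.23).

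H4 genes had few counts. HIST4H4, the single member on chromosome 12 (chr12:14767999-14771131), was counted 20, 20 and 20 times with SUDS3 siRNA, 32, 44 and 44 times with PHF12 siRNA, and 16, 8 and 12 times with control siRNA. The groups did not overlap, though control counts of 8 to 16 stand for about 2 to 4 fragments. It rose with PHF12 siRNA (1.57, SE 0.57, edgeR adjusted p = 0.0316), a call that ended without PHF12 replicate 2, PHF12 replicate 3 or control replicate 2, with edgeR adjusted p of 0.0821, 0.113 and 0.109. With SUDS3 siRNA its log2 fold change was 0.67 (SE 0.58, edgeR adjusted p = 0.403), and it was the only one of the 18 members with a value above 0 there. HIST1H4E was counted 40, 28 and 32 times with SUDS3 siRNA, 28, 24 and 0 times with PHF12 siRNA, and 48, 40 and 32 times with control siRNA. Its log2 fold change with PHF12 siRNA was -1.38 (SE 0.60, edgeR adjusted p = 0.0759). That value turns on the single library without counts, where 0 allows up to 3 fragments, or 12 counts. DESeq2, edgeR without a low-count filter or with a filter at a mean count of 40, limma on log2(TPM + 1) and the fit without PHF12 replicate 1 called it lower. HIST1H4H, with 1.04 ± 0.316 CPM with SUDS3 siRNA, 1.13 ± 0.0646 CPM with PHF12 siRNA and 1.32 ± 0.146 CPM in control cells, passed no comparison.

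Around the count threshold, HIST4H4 and HIST1H4E lay just inside with a mean of 40 counts in their highest group and HIST1H2BC with 41.3, while HIST1H2BO with 30.7, HIST1H4I with 28 and HIST2H2BF with 21.3 lay just outside. The 12 tested members below the threshold passed no comparison, and their smallest edgeR adjusted p was 0.254 for HIST1H3B with SUDS3 siRNA, 0.35 for HIST2H2AC with PHF12 siRNA and 0.33 for HIST1H2AI between the knockdowns. None of the 12 had an unadjusted p under 0.05. Of the 71 members, 36 had a mean count under 3 in every group, including the 17 without any count. For 11 members fewer than 10% of their 50-base windows are unique among annotated transcripts, among them the duplicated HIST2H2AA3 and HIST2H2AA4, HIST2H3A and HIST2H3C, and HIST2H4A and HIST2H4B. Their counts are uncertain for that reason; none of the 11 had more than 72 counts over the 9 libraries, and none is among the 18.

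Most promoters of the members carry known elements of histone genes. RefSeq start sites (GRCh38.p14; 250 bases before to 50 after the start) were matched by symbol and position for 66 of the 71 members, taking the first start listed for the 4 members with more than 1, and the letters of 4 elements were searched on both strands. The octamer ATTTGCAT, bound by POU2F1, stood in 26 of the 66 (39.39%), against 1.77% of all 35116 promoters in the table. It was found for 11 of 16 H2A genes, 14 of 18 H2B genes, 1 of 13 H3 genes and no H1 or H4 gene. Some H2A and H2B genes are neighbours on opposite strands, such as HIST1H2AC and HIST1H2BC, whose starts lie 219 bases apart. The windows of such neighbours can overlap, and 1 site can then be counted for both genes. The 26 are thus genes and need not be separate sites. The letters CCAAT were found in 84.85% of the members and 34.61% of all promoters, and TATAAA in 66.67% and 11.53%. CCAAT was found for every matched H1, H2A, H2B and H3 gene but for only 3 of 13 H4 genes (23.08%). The H1 box AAACACA was found for all 6 H1 genes, against 5.64% of all promoters. None of these letter strings contains another, though matches can overlap at their ends. The promoters of HIST1H1C and HIST1H2BK are shown because both genes rose with PHF12 siRNA and were lower with SUDS3 than with PHF12 siRNA; matches are in capitals, and both run 5′ to 3′ on the minus strand, at chr6:26056421-26056720 and chr6:27146809-27147108.
HIST1H1C: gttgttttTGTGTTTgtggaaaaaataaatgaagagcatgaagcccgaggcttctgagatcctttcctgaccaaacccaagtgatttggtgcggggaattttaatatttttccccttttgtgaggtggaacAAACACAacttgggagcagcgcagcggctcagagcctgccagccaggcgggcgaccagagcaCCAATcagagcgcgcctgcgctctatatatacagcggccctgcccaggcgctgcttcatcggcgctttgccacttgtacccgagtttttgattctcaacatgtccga
HIST1H2BK: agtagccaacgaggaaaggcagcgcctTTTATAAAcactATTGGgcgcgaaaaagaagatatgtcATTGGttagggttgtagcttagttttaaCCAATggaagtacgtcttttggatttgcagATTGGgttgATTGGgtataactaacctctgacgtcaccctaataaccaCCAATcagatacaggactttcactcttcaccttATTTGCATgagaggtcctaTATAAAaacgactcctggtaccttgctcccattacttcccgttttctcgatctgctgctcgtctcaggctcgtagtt
HIST1H1C holds the H1 box on each strand and a CCAAT box near the start, while HIST1H2BK holds CCAAT boxes on both strands, an octamer and TATA boxes. The shared letters are thus limited to CCAAT. A match describes the letters in this window and does not show that a factor binds there.

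Among 11 factors of histone gene transcription, 6 rose and 3 fell with SUDS3 siRNA, and 4 rose and none fell with PHF12 siRNA, by edgeR. Over all genes tested, 19.6% rose and 19.2% fell with SUDS3 siRNA, and 14.8% rose and 17.1% fell with PHF12 siRNA. Between the knockdowns 22.7% were higher and 21.1% lower with SUDS3 siRNA. These shares stand beside this list and those that follow, and no list was matched to all genes by level. CCNE2, a cyclin that activates CDK2 at the start of S phase, had 30.3 ± 1.29 CPM with SUDS3 siRNA, 53.9 ± 5.00 CPM with PHF12 siRNA and 51.6 ± 4.26 CPM in control cells, and fell with SUDS3 siRNA (-0.77, edgeR adjusted p = 1.97e-11). Its relative CCNE1 rose there (0.41, edgeR adjusted p = 7.2e-08) and with PHF12 siRNA (0.15, edgeR adjusted p = 0.0252). With SUDS3 siRNA so did CDK2 (0.23, edgeR adjusted p = 5.85e-06) and NPAT (0.20, edgeR adjusted p = 0.00437), while POU2F1 fell (-0.26, edgeR adjusted p = 0.000148). With PHF12 siRNA, CRAMP1, which acts on H1 gene transcription, rose (0.37, edgeR adjusted p = 1.22e-05), with 34.3 ± 0.208 CPM with SUDS3 siRNA, 40.1 ± 1.44 CPM with PHF12 siRNA and 31.1 ± 0.666 CPM in control cells. YY1AP1 rose with SUDS3 siRNA (0.27, edgeR adjusted p = 4.97e-05) and with PHF12 siRNA (0.25, edgeR adjusted p = 0.000168), and so did HINFP, a factor of H4 promoters (0.27, edgeR adjusted p = 0.00109, and 0.20, edgeR adjusted p = 0.0156). Between the knockdowns 5 of the 11 were higher and 4 lower with SUDS3 siRNA, with the smallest p for CCNE2 (-0.83, edgeR adjusted p = 9.42e-13), the S-phase activator E2F1 (-0.28, edgeR adjusted p = 2.06e-06) and CCNE1 (0.26, edgeR adjusted p = 8.54e-05).

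Of 19 genes of histone 3′ end formation and poly-A cleavage, 8 rose and 2 fell with SUDS3 siRNA, and 8 rose and 3 fell with PHF12 siRNA. SLBP had 151.6 ± 2.91 CPM with SUDS3 siRNA, 128.6 ± 5.91 CPM with PHF12 siRNA and 127.0 ± 1.07 CPM in control cells, and rose with SUDS3 siRNA (0.26, edgeR adjusted p = 1.88e-06). So did the cap-binding NCBP1 (0.21, edgeR adjusted p = 4.12e-05) and the U7 subunit LSM11 (0.31, edgeR adjusted p = 0.000109). CSTF2, a subunit of the cleavage stimulation factor, had 74.6 ± 1.79 CPM with SUDS3 siRNA, 41.9 ± 1.63 CPM with PHF12 siRNA and 69.5 ± 2.59 CPM in control cells, and fell with PHF12 siRNA (-0.73, edgeR adjusted p = 5.22e-14). The U7 subunit LSM10 also fell there (-0.46, edgeR adjusted p = 2.36e-06), and the cleavage factor CPSF1 rose (0.29, edgeR adjusted p = 1.86e-07), as it did with SUDS3 siRNA (edgeR adjusted p = 0.000192). LSM10 rose with SUDS3 siRNA (0.27, edgeR adjusted p = 0.0019), so that it differed between the knockdowns by 0.73 (edgeR adjusted p = 6.02e-11). Between the knockdowns 8 of the 19 were higher and 8 lower with SUDS3 siRNA, among them CSTF2 (0.83, edgeR adjusted p = 6.45e-16) and the cap-associated SRRT (-0.21, edgeR adjusted p = 9.61e-07). The part of any of these changes in the histone levels was not tested.

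Of 11 genes of histone mRNA translation and decay, 2 rose and 2 fell with SUDS3 siRNA, and 4 rose and 4 fell with PHF12 siRNA. UPF1, a helicase needed for the decay of histone mRNA, rose with SUDS3 siRNA (0.31, edgeR adjusted p = 3.76e-08) and with PHF12 siRNA (0.20, edgeR adjusted p = 6.87e-05). TUT7, which adds uridines to histone mRNA, rose with SUDS3 siRNA (0.39, edgeR adjusted p = 1.6e-05) and with PHF12 siRNA (0.30, edgeR adjusted p = 0.000649). LSM1, of the ring that binds such tails, fell with PHF12 siRNA (-0.44, edgeR adjusted p = 1.44e-07). Exosome subunit EXOSC10 fell with SUDS3 siRNA (-0.22, edgeR adjusted p = 7.95e-06) and rose with PHF12 siRNA (0.18, edgeR adjusted p = 0.000157). Between the knockdowns 5 of these genes were higher and 2 lower with SUDS3 siRNA, with the smallest p for EXOSC10 (-0.39, edgeR adjusted p = 1.73e-11), LSM1 (0.52, edgeR adjusted p = 1.69e-09) and the kinase SMG1 (0.18, edgeR adjusted p = 6.69e-05).

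Of 11 histone chaperones and deposition factors, 3 rose and 4 fell with SUDS3 siRNA, and 5 rose and 1 fell with PHF12 siRNA. The FACT subunit SSRP1 had 620.8 ± 5.33 CPM with SUDS3 siRNA, 817.2 ± 6.86 CPM with PHF12 siRNA and 749.4 ± 10.6 CPM in control cells, and fell with SUDS3 siRNA (-0.27, edgeR adjusted p = 8.82e-11) and rose with PHF12 siRNA (0.12, edgeR adjusted p = 0.000184). NASP, a chaperone of H3 and H4, rose with SUDS3 siRNA (0.26, edgeR adjusted p = 3.72e-09). RBBP7, also a SIN3 complex subunit, fell with SUDS3 siRNA (-0.16, edgeR adjusted p = 1.17e-05) and rose with PHF12 siRNA (0.26, edgeR adjusted p = 1.28e-09). The other FACT subunit SUPT16H rose with PHF12 siRNA (0.27, edgeR adjusted p = 1.12e-09), and the S-phase chaperone ASF1B fell (-0.41, edgeR adjusted p = 2.01e-09), as it did with SUDS3 siRNA (-0.18, edgeR adjusted p = 0.00112). Between the knockdowns 3 were higher and 5 lower with SUDS3 siRNA, with the smallest p for SSRP1 (-0.40, edgeR adjusted p = 1.86e-15), RBBP7 (-0.42, edgeR adjusted p = 2.67e-15) and SUPT16H (-0.29, edgeR adjusted p = 1.32e-10).

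Genes of S phase went both ways in each comparison with control. Of 17 replication and nucleotide genes, 2 rose and 8 fell with SUDS3 siRNA, at a median log2 fold change of -0.07. With PHF12 siRNA 7 of the 17 rose and 6 fell, at a median of 0.05. Over all genes tested, 19.6% rose and 19.2% fell with SUDS3 siRNA, and 14.8% rose and 17.1% fell with PHF12 siRNA. The summed level of the 17 genes was 4055 to 4172 CPM with SUDS3 siRNA, 4393 to 4437 CPM with PHF12 siRNA and 4293 to 4344 CPM with control siRNA. It was lowest with SUDS3 siRNA, as the histone sum was. Between the knockdowns 3 of the 17 were higher and 8 lower with SUDS3 siRNA, with the smallest p for RRM1 (-0.44, edgeR adjusted p = 1.34e-14), GINS2 (0.41, edgeR adjusted p = 5.86e-10) and POLA1 (-0.38, edgeR adjusted p = 5.48e-09). TYMS fell with SUDS3 siRNA (-0.27, edgeR adjusted p = 1.51e-07) and with PHF12 siRNA (-0.31, edgeR adjusted p = 7.11e-09), and RRM2 fell in both (-0.29, edgeR adjusted p = 3.58e-07, and -0.30, edgeR adjusted p = 1.66e-07). PRIM1 fell with SUDS3 siRNA (-0.44, edgeR adjusted p = 6.76e-07), and RRM1 fell with SUDS3 siRNA (-0.17, edgeR adjusted p = 2.09e-05) and rose with PHF12 siRNA (0.27, edgeR adjusted p = 6.51e-09). The part of cell cycle position in the histone changes was not tested.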

How the data were processed

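RNA was sequenced from 9 poly-A selected, stranded libraries, 3 for each of 3 siRNA groups, which were taken from the labels. Per the submitters' processing notes, the tools were Trimmomatic 0.36, HISAT2 2.1.0 and HTSeq, and the build was GRCh38. How the counting treated strand and multiple mapping is not given here. The authors deposited whole-number counts for 58735 genes, all found in GENCODE 29, which gave symbols, types, exonic lengths and GRCh38 positions. The authors also deposited TPM values for 58734 of them. Within each gene these TPM were proportional to the counts (largest SD of log2 CPM over TPM 0.0049), but the length they imply had a Spearman rho of 0.0037 with GENCODE 29 exonic length across 11765 genes, which are not independent replicates. TPM levels of different genes are therefore not reported; TPM still entered between genes in 1 part of the rule for naming members and in the minimum for limma. Planned TPM sums were replaced by CPM and CPM per kilobase, a choice made after seeing the data.

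The main test was run on the counts in R 4.3.3 with edgeR 4.0.16. Genes passed filterByExpr (by group, minimum count 10), libraries were scaled by TMM, and the model was a robust quasi-likelihood fit of 3 group means over all 9 libraries. The 3 contrasts were tested by F-test, with Benjamini-Hochberg adjustment over all 18088 genes tested and a threshold of 0.05. SE is the log2 fold change over the root of F. Alternatives used DESeq2 1.42.0 and limma 3.58.1 (on log2 TPM with a pseudocount of 1 or 0.1 and a minimum TPM of 0.5), other scaling and filters, counts divided by 4, a replicate block and each library left out. The steps were tested on simulated data. Uniqueness is the share of 50-base windows found in no other gene's annotated transcripts. A count of 0 allows up to 3 fragments, or 0.237 to 0.317 CPM, and covers counting error only. No 2 libraries of a group were identical (chi-square per degree of freedom 1.35 to 2.10).

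Members described with values are those with the 10 highest mean TPM or CPM per kilobase, those with an adjusted p under 0.05, those nearest a mean count of 40, and the other members above it; each pathway list gives its counts and the genes with the 3 smallest p, in each comparison, and NPAT and POU2F1 were added after their values were seen. The members and lists were chosen with earlier results of these data known, and no list was tested as a set.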

Additional observations from a re-analysis of the deposited data

How the results depend on the processing

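Over 19 alternative fits, the calls of HIST1H1C in all 3 comparisons, HIST1H2BK with PHF12 siRNA and between the knockdowns, HIST3H2A in both comparisons with control, HIST1H2BN with SUDS3 siRNA, and HIST1H2AC with SUDS3 siRNA and between the knockdowns held in each; those of HIST1H3E and HIST1H2AG with SUDS3 siRNA and between the knockdowns held in the 17 fits that tested them. Counted once per gene, comparison and alternative fit, 21 single-gene results passed the threshold only under the alternative and 20 lost it. Another 1090 were the same, and 0 called ones changed direction. Several of the changed results came from the same gene and comparison. Some that passed in neither fit changed direction, such as HIST1H2AG with PHF12 siRNA (-0.36 to 0.18). No member was called higher with SUDS3 siRNA except in limma on log2(TPM + 1) and log2(TPM + 0.1), which each called 1, HIST4H4. Members called higher with PHF12 siRNA numbered 2 to 4, with HIST1H3E added in DESeq2. Members called lower with PHF12 siRNA numbered 2 in DESeq2, without a low-count filter, with a filter at a mean count of 40 and in limma on log2(TPM + 1), each adding HIST1H4E; without 1 library the number was 1 to 2, the added member being HIST1H4E without PHF12 replicate 1 and HIST1H2AL without PHF12 replicate 2. The cause of these changes was not tested. On log2(TPM + 1) the difference of HIST1H1C between the knockdowns was -0.65, against -1.11, as a pseudocount shrinks low values. Members called lower with SUDS3 siRNA numbered 6 to 9, and between the knockdowns 6 to 9. With counts divided by 4, 14 members passed the filter and HIST4H4 was not tested.

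Upper-quartile scaling moved the share of higher calls over all genes to 56.9% with PHF12 siRNA, against 46.4% with TMM, and to 41.2% between the knockdowns, against 51.8%; the members called in these comparisons were the same by name, and with SUDS3 siRNA HIST1H2BD was added. Summed per kilobase, restricting to members with a mean count of at least 40 gave H2A levels of 18.1, 20.05 and 25.3 with SUDS3, PHF12 and control siRNA, against 21.3, 23.3 and 28.9 over all members, and H2B with PHF12 siRNA of 72.2, against 74.2. It gave H3 levels of 3.10, 5.08 and 4.0002, against 3.80, 6.19 and 5.27, and H4 levels of 1.17, 1.09 and 1.35, against 2.54, 2.70 and 3.43, because fewer genes were summed; for H4 the order of the knockdowns reversed.

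Deviations of same-numbered libraries correlated at -0.0844 to 0.0801, and those of differently numbered libraries at -0.0941 to 0.0742. These values gave no sign of pairing by replicate number. Whether same-numbered libraries were handled together is not stated. With the replicate number as a block, 7073, 5848 and 7981 genes were called with SUDS3 siRNA, with PHF12 siRNA and between the knockdowns, against 7004, 5776 and 7937. The block added HIST1H2BD to the members lower with SUDS3 siRNA and changed no other member's call.

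Depth limits most members. At 4 counts to a fragment, a mean count of 40 is about 10 fragments, and 53 of the 71 members lie below it. Of these 41 were not tested, and the power for the other 12 was not measured.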

Other observations

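In the deposited TPM table the length that each value implies does not follow the annotated length of the gene. Relative to the median gene, the ratio of implied to GENCODE 29 exonic length was 36.4 for HIST1H1C, 18.6 for HIST1H3E, 7.19 for HIST3H2A and 2.08 for HIST1H2BK. On the same relative scale, the 11765 genes with at least 100 counts in every library ran from 0.0877 at the 5th percentile to 9.17 at the 95th. TPM levels of different genes are therefore not reported here.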
